A study of Homo sapiens with 4 samples.

Results

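The genes followed here are 10 genes of the cellular response to low oxygen, namely the hypoxia-inducible factors (HIFs) HIF1A, EPAS1 and ARNT, the HIF hydroxylases HIF1AN, EGLN1 and EGLN3, and the hypoxia target genes VEGFA, ADM, BNIP3 and NDRG1. They were chosen by symbol, and 9 of the 10 had a row among the 14431 genes of the deposited table. The level of BNIP3 was not analysed here, and only its promoter was searched. RNA was sequenced from HGC27, a human gastric cancer cell line, in 2 control libraries and 2 siAARS1 libraries, in which a small interfering RNA was directed at AARS1. The labels give the genotype as WT for the control and as AARS1 knockdown for the siAARS1 libraries. Cells of both groups were kept in serum-containing DMEM that lacked glucose and held 25 mM lactate. The labels give 24 h under lactate and the text of the study gives another duration, so the time is uncertain. No library without lactate or under low oxygen was analysed here. Knockdown with small interfering RNA lowers a transcript for a time and does not delete its gene. The comparison asked which transcripts changed with AARS1 knockdown under lactate, and here what the HIF pathway did within that change.

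HIF is a transcription factor made of an oxygen-regulated α subunit and the stable β subunit ARNT. In the presence of oxygen, the prolyl hydroxylases of the EGLN family mark the α subunit for the VHL ubiquitin ligase, and the asparaginyl hydroxylase HIF1AN keeps it from binding its coactivators. When oxygen falls, the α subunit escapes both, and HIF switches on genes of glycolysis, vessel growth and mitophagy through hypoxia response elements. HIF activity is set mainly at the level of the protein, which was not measured here.

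Sequencing gave 30653210 to 33522573 reads per library over the listed genes, so that 1 read equalled 0.0293 to 0.0324 CPM, the read count scaled to library size. The targeted gene AARS1 (listed as AARS, ENSG00000090861) was measured at 428 and 417 CPM in controls and at 292 and 298 CPM after knockdown. Its level after knockdown was 69.7% of the control mean (log2 fold change −0.52, SE 0.0357, limma adjusted p = 2.52e-11). After the correction for GC content and transcript length described below, the log2 fold change of AARS1 was −0.29 (limma adjusted p = 2.41e-07). Epithelial and gastric lineage markers were sparse in these cells. Of 24 cell markers, 10 were listed, and all 5 gastric lineage markers, all 3 endothelial markers and EPCAM were among the others. Of the 9 markers tested, 2 were higher and 7 lower with the knockdown, against 32.6% higher and 38.0% lower among all genes tested. The epithelial keratin KRT8 was at 24.8 and 25.2 CPM in controls and at 6.61 and 5.08 CPM after knockdown. ZEB1, a repressor of epithelial genes, was at 6.16 and 6.84 CPM in controls and at 50.03 and 52.3 CPM after knockdown. Of the 3 mesenchymal state markers tested, ZEB1 was the 1 called higher and 2 were lower. All 3 epithelial markers tested were lower, and of the 3 fibroblast markers 1 was higher and 2 were lower. After the same correction 2 mesenchymal state markers were higher and 1 lower, and all 3 epithelial and all 3 fibroblast markers were lower. Among all 13819 genes with that correction, 4522 were higher and 4612 lower. The part of such shifts in the results below was not tested. In RNA from bulk cultures, fewer cells of a kind and less RNA per cell cannot be told apart.

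The transcriptome as a whole moved with the knockdown. Of 14199 genes tested, 10032 passed an adjusted p of 0.05 in limma (70.7%), with 32.6% higher and 38.0% lower, and in 85.1% the 2 groups did not overlap in CPM. Over all genes the median log2 fold change was −0.05, and scaling the libraries to a common median shifted it to −0.27. The change also followed base composition. When genes were divided by the GC content of their transcript into 5 bins of equal size, its median was 0.77 in the bin of 27.8% to 41.3% GC and −0.30 in the bin of 58.9% to 75.2% GC. Fold changes after joint removal of the trends with GC content and transcript length (GC and length correction) are therefore given beside those of the CPM as deposited. The shares of GC content and of length in the correction were not separated. Whether the trends came from the libraries or from the cells was not tested, and the correction takes out a true change that follows either property as well. All log2 fold changes are siAARS1 minus control on the log2(CPM + 1) scale. On it, low genes show less than their true change.

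**Figure D1:**
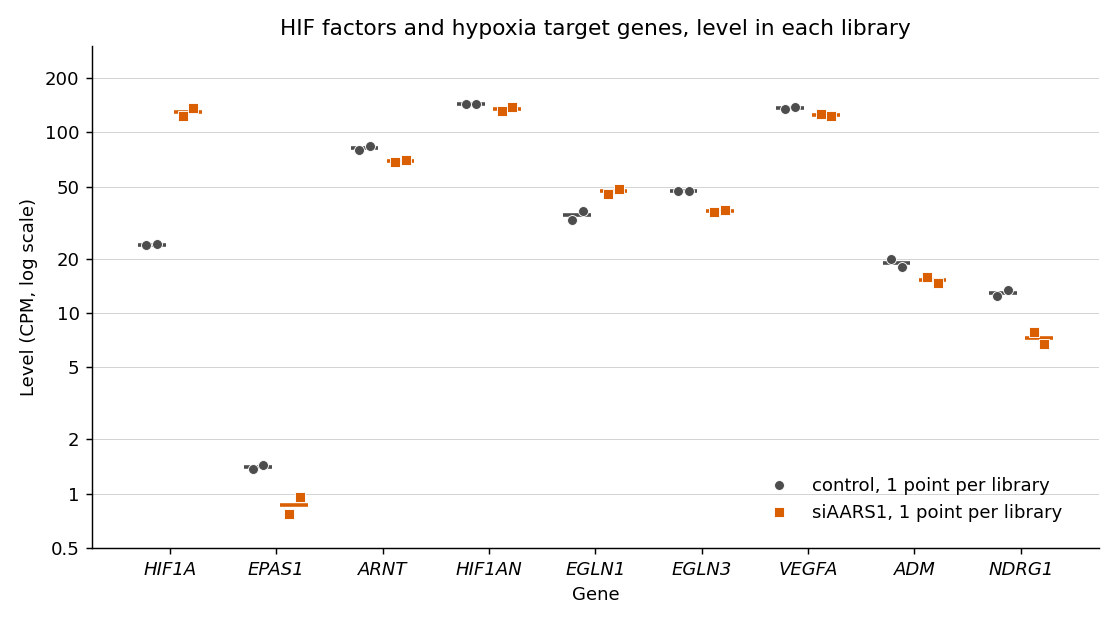
Level of each of the 9 measured genes in each library, in CPM on a log scale, with 1 point per library and a bar at the mean of the 2 libraries of a group. HIF1A stands at 23.6 and 24.1 CPM in controls and at 123 and 137 CPM after knockdown, and for no gene do the groups overlap.

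Among the 9 genes, 8 passed the threshold, 2 higher and 6 lower in siAARS1 cells, against 70.7% of all genes in either direction. HIF1A and EGLN1 were the 2 higher ones. The median log2 fold change of the 9 genes was −0.24, with a range from −0.75 for NDRG1 to 2.39 for HIF1A. The groups did not overlap for 9 of 9, against 85.1% of all genes. With so much of the transcriptome called, the count of 8 of 9 says little about these genes in particular, and their single values follow. All 9 passed the filter of a mean of 1 CPM in at least 1 group, 8 of them in both groups and EPAS1 in the control group alone. Nothing in the labels says that the libraries came from separate cultures, so that the p-values measure the spread between these samples, which may be technical.

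Of the oxygen-regulated α subunits, HIF1A rose and EPAS1 was scarcely expressed. HIF1A (ENSG00000100644; chromosome 14, 61695513 to 61748259, plus strand, GRCh38) encodes HIF-1α, the α subunit found in most cell types. HIF1A was measured at 23.6 and 24.1 CPM in controls and at 123 and 137 CPM after knockdown. Both siAARS1 libraries lay far above both controls, and they differed from each other by more than the controls did. The mean rose 5.43-fold, from 23.9 ± 0.357 to 129.6 ± 9.74 CPM (SD, n = 2 each), with a log2 fold change of 2.39 (SE 0.0560, 95% interval 2.27 to 2.51, adjusted p = 2.73e-19). It ranked 166 of 14199 genes from the highest log2 fold change. These values rest on 806 and 766 reads in the controls and on 3790 and 4538 reads after knockdown, so that counting error was small. The HIF1A transcript has a GC content of 36.4%, in the GC bin whose median log2 fold change was 0.77 and of which 80.4% were called higher. Within that bin HIF1A ranked 140 of 2764. After the GC and length correction its log2 fold change was 1.303 (SE 0.0427, adjusted p = 4.56e-13). GENCODE v29 places HIF1A-AS1 and HIF1A-AS2 on the other strand of the same locus. Neither had a row in the table, and whether the counting used strand is not given in the sources used here.

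EPAS1 (ENSG00000116016; chromosome 2, 46293667 to 46386703, plus strand) encodes HIF-2α, the α subunit known best from endothelium and kidney and from tumours without VHL. EPAS1 was near the floor of the table, with 1.38 and 1.45 CPM in the control libraries (47 and 46 reads) and 0.777 and 0.963 CPM after knockdown (24 and 32 reads). The controls were the higher ones and the groups did not overlap. The log2 fold change of −0.37 (SE 0.164, 95% interval −0.71 to −0.03) was at the edge of the threshold (adjusted p = 0.0499), and it missed the threshold in 12 of 14 alternatives, with adjusted p up to 0.235. The size depended on the pseudocount, with −0.65 at a pseudocount of 0.1 and −0.71 in edgeR with library size only, and the mean CPM after knockdown was 61.5% of that in controls. At this depth a fall of EPAS1 was thus not firmly detectable. A difference between the changes of HIF1A and EPAS1 was not tested.

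ARNT (ENSG00000143437; chromosome 1, 150809705 to 150876768, minus strand) encodes HIF-1β, the partner that both α subunits need to bind DNA. ARNT was measured at 79.3 and 84.3 CPM in controls and at 68.5 and 69.9 CPM after knockdown. Both knockdown libraries lay below both controls, by more than the 2 controls differed from each other. The log2 fold change was −0.24 (SE 0.0484, adjusted p = 0.000183), and −0.27 after the GC and length correction (adjusted p = 1.55e-05). Of the HIF subunits, ARNT had a change that depended least on the correction.

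The hydroxylases, which hold HIF in check, did not move as a group. EGLN1 (ENSG00000135766; chromosome 1, 231363751 to 231425044, minus strand), also called PHD2, is the main oxygen sensor that hydroxylates HIF-1α. EGLN1 was measured at 32.7 and 36.7 CPM in controls and at 45.7 and 48.5 CPM after knockdown. The knockdown libraries were higher, with a log2 fold change of 0.43 (SE 0.0634, adjusted p = 3.24e-06), but the sign turned after the GC and length correction, to −0.09 (adjusted p = 0.139). The EGLN1 transcript has a GC content of 44.1%, and 52.7% of the genes in its GC bin were called higher.

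EGLN3 (ENSG00000129521; chromosome 14, 33924231 to 34462774, minus strand), also called PHD3, is a prolyl hydroxylase and itself a well-known HIF target. EGLN3 was measured at 47.19 and 47.22 CPM in controls and at 36.0 and 37.0 CPM after knockdown. The controls agreed closely and both knockdown libraries lay below them. The fall to 77.3% of the control mean had a log2 fold change of −0.36 (SE 0.0563, adjusted p = 7.13e-06), and −0.21 after the GC and length correction (adjusted p = 0.000979). The annotated span of EGLN3 contains SPTSSA on the same strand, which was at 48.9 CPM in control and 45.6 CPM in siAARS1 cells on average, with a log2 fold change of −0.10 (adjusted p = 0.118).

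HIF1AN (ENSG00000166135; chromosome 10, 100529072 to 100559998, plus strand), also called FIH, is the asparaginyl hydroxylase. It had the highest CPM of the 9 genes in the controls, with 143.0 and 142.5 CPM, and 131.8 and 138.6 CPM after knockdown. The groups did not overlap, yet the difference of −0.08 on the log2 scale missed the threshold (SE 0.0415, 95% interval −0.16 to 0.01, adjusted p = 0.0971). It passed with median scaling, with −0.30 (adjusted p = 9.96e-07), without siAARS1 replicate 2, with −0.11 (adjusted p = 0.0383), and after the GC and length correction, with −0.52 (adjusted p = 1.48e-09). The HIF1AN transcript used for that correction is 13.0 kb long with 46.8% GC, in a GC bin with a median log2 fold change of −0.12. HIF1AN overlaps a gene on the other strand with the identifier ENSG00000255339, which the table lists as NDUFB8 and which GENCODE v29 keeps apart from NDUFB8. That row was lower after knockdown (log2 fold change −0.30, adjusted p = 5.47e-07), and without strand the reads of the pair cannot be told apart.

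The hypoxia targets VEGFA, ADM and NDRG1 were lower in siAARS1 cells, while HIF1A was higher. NDRG1 (ENSG00000104419), a stress-responsive gene that hypoxia and HIF strongly induce, fell the most. NDRG1 was measured at 12.4 and 13.4 CPM in controls and at 7.84 and 6.74 CPM after knockdown. The knockdown mean was 56.6% of the control mean, and the gap between the groups was several times the spread within them. The log2 fold change was −0.75 (SE 0.104, adjusted p = 1.71e-06), and −0.46 after the GC and length correction (adjusted p = 0.000539). In its GC bin NDRG1 ranked 2553 of 2764 from the highest change.

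VEGFA (ENSG00000112715; chromosome 6, 43770184 to 43786487, plus strand) encodes the growth factor that drives new vessels into hypoxic tissue. VEGFA was measured at 134.9 and 137.1 CPM in controls and at 125.5 and 123.1 CPM after knockdown. The groups did not overlap, but the difference was small, with a log2 fold change of −0.13 (SE 0.0409, adjusted p = 0.00805), and it turned to 0.05 after the GC and length correction (adjusted p = 0.182). It also missed the threshold without control replicate 2 (adjusted p = 0.0733), with edgeR and TMM (adjusted p = 0.0577) and with DESeq2 (adjusted p = 0.193).

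ADM (ENSG00000148926; chromosome 11, 10304680 to 10307397, plus strand) encodes adrenomedullin, a peptide that widens vessels. ADM was measured at 19.9 and 17.9 CPM in controls and at 15.7 and 14.7 CPM after knockdown. The log2 fold change was −0.30 (SE 0.0846, adjusted p = 0.00389), and it turned to 0.02 after the GC and length correction (adjusted p = 0.817). The adjusted p was 0.0749 without control replicate 1 and 0.0501 without siAARS1 replicate 2, so that its call depended on single libraries, and it was 0.0656 with DESeq2.

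**Figure D2:**
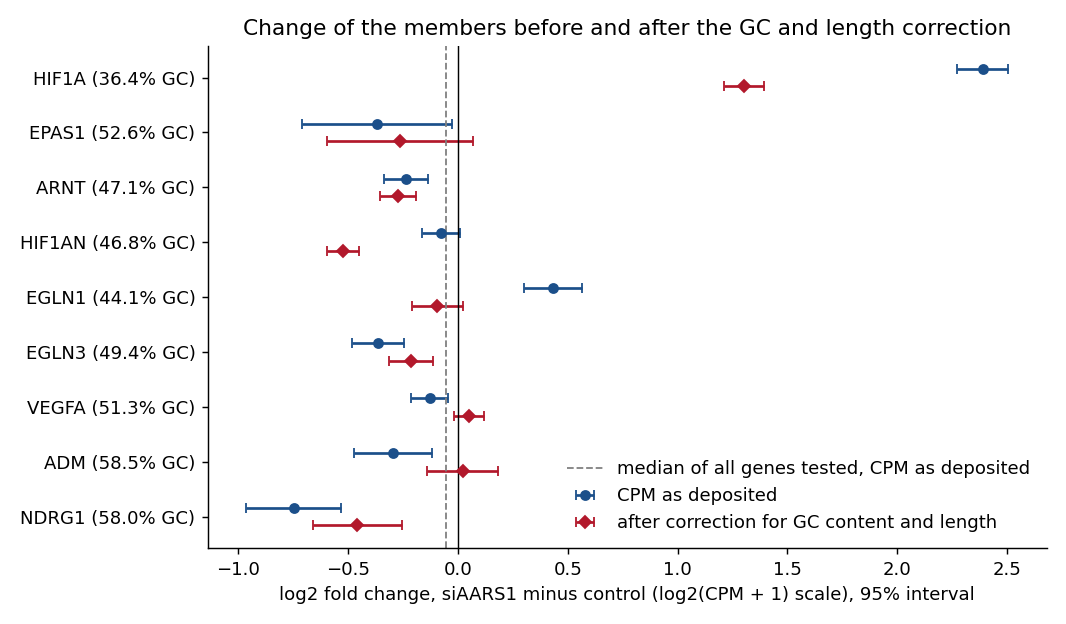
Log2 fold change of each gene, siAARS1 minus control on the log2(CPM + 1) scale, with its 95% interval, for the CPM as deposited and after the correction for GC content and transcript length. The label gives the GC content of the transcript. HIF1A stays above 0 at 2.39 and 1.303, and NDRG1 stays below 0 at −0.75 and −0.46. EGLN1, VEGFA and ADM change sign, to values that did not pass the threshold.

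Set side by side, the changes fall into 3 sets. HIF1A was higher, and ARNT, EGLN3 and NDRG1 lower, in the CPM as deposited and in each of the 14 alternatives. EGLN1, VEGFA and ADM passed the threshold in the CPM as deposited. With the GC and length correction their sign turned, to values that did not pass it. EPAS1 and HIF1AN stood on different sides of the threshold depending on the setting. After the GC and length correction 5 of the 9 genes passed, 1 higher and 4 lower, against 66.1% of all genes. On reads recovered from the CPM steps, 6 passed with edgeR and TMM normalization, 2 higher and 4 lower, against 69.1% of all genes. With DESeq2 5 passed, 2 higher and 3 lower, against 58.8%.

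**Figure D3:**
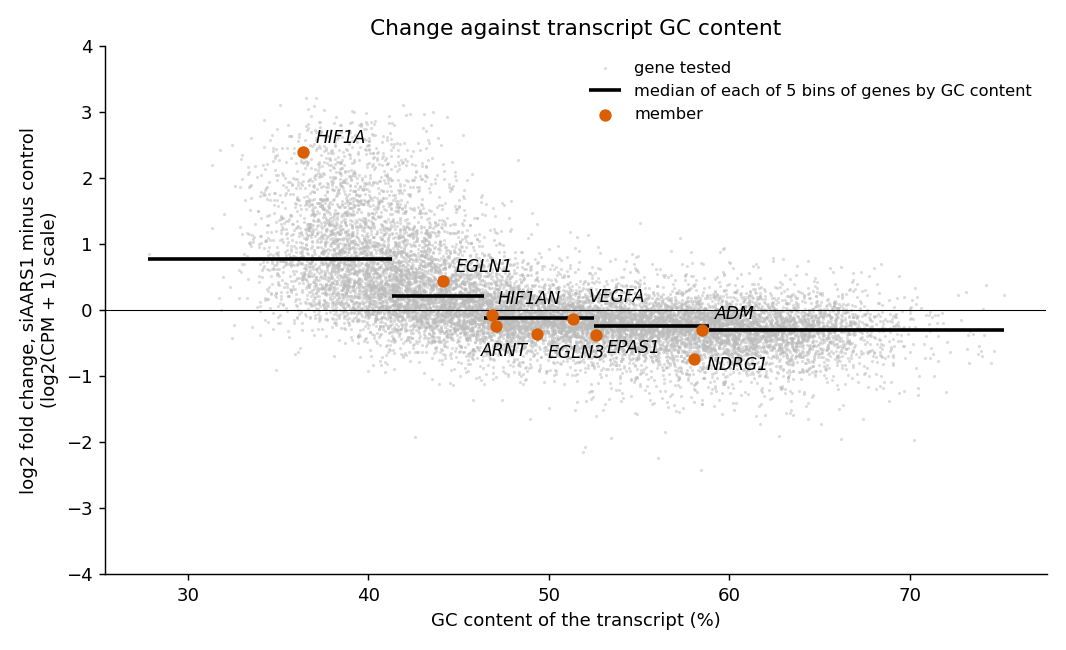
Log2 fold change against the GC content of the transcript for the 13819 tested genes with a GC value, siAARS1 minus control on the log2(CPM + 1) scale, with the 9 genes named and a line at the median of each of 5 bins of genes by GC content. HIF1A lies above the median of its bin of 0.77 at 2.39, and NDRG1 lies below the median of its bin of −0.24 at −0.75.

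Levels of different genes were compared per kilobase of the longest annotated transcript (CPM per kb). In the control libraries the order of the levels was VEGFA at 38.5 ± 0.428, ARNT at 16.7 ± 0.730 and EGLN3 at 16.6 ± 0.00695 CPM per kb (SD, n = 2). ARNT and EGLN3 overlapped and had no order. HIF1AN at 10.97, ADM at 10.0, HIF1A at 6.04, EGLN1 at 4.89 and NDRG1 at 3.43 CPM per kb followed, and EPAS1 was lowest at 0.274. In the siAARS1 libraries VEGFA was still first at 35.2 ± 0.484 CPM per kb, and HIF1A had moved to the next place at 32.8 ± 2.46 CPM per kb. There ARNT and EGLN3 no longer overlapped, the remaining genes followed in the same order as in the controls, and EPAS1 was last at 0.168 CPM per kb. HIF1A was thus expressed above its β partner ARNT after knockdown, where ARNT stood at 14.2 CPM per kb, and below it in the controls. GC content can affect such comparisons between genes, and the values per kb are not corrected for it or for its trend between the groups. With the GC and length correction the log2 fold change of HIF1A was 1.303 instead of 2.39, and that of ARNT −0.27 instead of −0.24. Whether the order of HIF1A and ARNT after knockdown holds with that correction was not tested.

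HIF binds hypoxia response elements, whose core reads ACGTG or GCGTG. To show where the genes that regulate HIF and answer to it carry such a core, the RefSeq promoter table (GRCh38.p14) was searched over the 250 bases before each start, on both strands. It held a promoter for 8 of the 10 genes, and VEGFA and NDRG1 were not among them. HIF1A had 2 promoters in the table, so that there were 9 promoters in all. Of all 35116 promoters in the table, 43.2% held at least 1 core, and 5 of the 9 did, those of EGLN1, EPAS1, ADM and BNIP3 and 1 of HIF1A. The other HIF1A promoter (chromosome 14, 61697462 to 61697761) and those of ARNT, HIF1AN and EGLN3 had none in this window. The 60 bases around the core are shown for EGLN1 (chr1:231422288-231422347, minus strand), HIF1A (chr14:61695282-61695341, plus strand), EPAS1 (chr2:46297263-46297322, plus strand) and ADM (chr11:10304945-10305004, plus strand), since these genes have both a core and a measured change. The capitals mark the core.
EGLN1: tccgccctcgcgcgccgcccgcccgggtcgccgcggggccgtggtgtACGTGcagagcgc
HIF1A: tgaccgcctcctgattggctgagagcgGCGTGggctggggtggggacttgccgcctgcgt
EPAS1: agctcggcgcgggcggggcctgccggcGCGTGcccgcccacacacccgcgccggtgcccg
ADM: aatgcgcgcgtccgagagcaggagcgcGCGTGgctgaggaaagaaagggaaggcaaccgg
The core begins 13 bases before the start in EGLN1, 204 in HIF1A, 117 in EPAS1 and 101 in ADM. A core was thus found both in genes with higher and in genes with lower CPM after knockdown. A match of 5 bases is a description of the sequence and no binding site, and the surrounding bases are rich in G and C.

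The rest of the oxygen sensing machinery was read from 22 further genes, of which 19 were listed and 18 tested. Of the 18, 13 passed the threshold, 5 higher and 8 lower, against 70.7% of all genes, with a median log2 fold change of −0.07. HIF3A, ARNT2 and P4HTM, the remaining HIF subunits and a hydroxylase of the endoplasmic reticulum, had no row. CITED4 was listed but too low to test. After the GC and length correction 11 of the 18 passed, 6 higher and 5 lower, against 66.1% of all genes. With the libraries scaled to a common median 17 passed, 4 higher and 13 lower. Of all 14199 genes, 11479 passed with that scaling, 3306 higher and 8173 lower.

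HSP90AA1, the inducible chaperone that holds HIF-1α, had the highest change of all these genes. HSP90AA1 was measured at 458 and 466 CPM in controls and at 2867 and 2963 CPM after knockdown. Both knockdown libraries stood 6.31-fold above the controls on average (log2 fold change 2.66, SE 0.0345, adjusted p = 4.90e-23), and the GC and length correction left 2.51. RACK1, which competes with the chaperone for HIF-1α and promotes its oxygen-independent breakdown, had a log2 fold change of −0.32 (adjusted p = 9.73e-08), and −0.03 after the GC and length correction. RACK1 was named after its values were seen.

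The VHL ligase, which removes hydroxylated HIF-1α, did not move as a unit. Its scaffold CUL2 was measured at 16.4 and 18.1 CPM in controls and at 56.1 and 62.3 CPM after knockdown, with a log2 fold change of 1.72 (adjusted p = 2.26e-15), and 0.77 after the GC and length correction. VHL itself, the subunit that recognizes hydroxylated proline, was measured at 62.29 and 62.34 CPM in controls and at 51.4 and 57.0 CPM after knockdown. Its log2 fold change was −0.20 (adjusted p = 0.00287), and it did not pass the threshold without siAARS1 replicate 1 or with DESeq2. Of the 5 ligase genes, 1 was higher, 3 were lower and 1 did not pass, against 32.6% higher and 38.0% lower among all genes. After the GC and length correction 2 were higher and 1 lower, against 4522 higher and 4612 lower of 13819 genes. ELOB and RBX1, subunits named after their values were seen, no longer passed.

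The deubiquitinases that VHL binds moved apart. USP33 had 27.6 and 29.4 CPM in controls and 54.4 and 58.4 CPM after knockdown (log2 fold change 0.96, adjusted p = 5.66e-12), but 0.08 after the GC and length correction (adjusted p = 0.166). USP20 was lower (log2 fold change −0.54, adjusted p = 4.66e-06), and −0.20 after the GC and length correction. WTIP, a scaffold between VHL and the hydroxylases, was lower as well (log2 fold change −0.60, adjusted p = 2.51e-05).

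The 2 coactivator genes tested were both called higher, against 32.6% of all genes. These were CREBBP and EP300, acetyltransferases through which HIF activates transcription. Their log2 fold changes were 0.27 and 0.44, and 0.51 and 0.60 after the GC and length correction. CREBBP did not pass the threshold when the libraries were scaled to a common median. CITED2, which competes with HIF-1α for these coactivators, was lower, with 37.9 and 41.7 CPM in controls and 28.5 and 28.5 CPM after knockdown (log2 fold change −0.47, adjusted p = 1.41e-06). EGLN2, also called PHD1, had 51.7 and 52.5 CPM in controls and 55.5 and 52.1 CPM after knockdown, so that its groups overlapped. Its log2 fold change was 0.04 (adjusted p = 0.465), negative under 2 other scalings and 0.42 after the GC and length correction. CREBBP and EP300 were named after their values were seen.

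Beyond VEGFA, ADM and NDRG1, 75 further known hypoxia targets were read, of which 70 were listed and 68 tested. Of the 68, 53 passed the threshold, 21 higher and 32 lower, against 70.7% of all genes, with a median log2 fold change of −0.12 beside −0.05 for all genes. With the libraries scaled to a common median, 13 were higher and 46 lower, against 3306 higher and 8173 lower of all 14199 genes. After the GC and length correction 24 were higher and 31 lower, against 4522 higher and 4612 lower of 13819 genes. Hypoxia targets thus changed in both directions under each of these settings, as did genes as a whole.

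**Figure D4:**
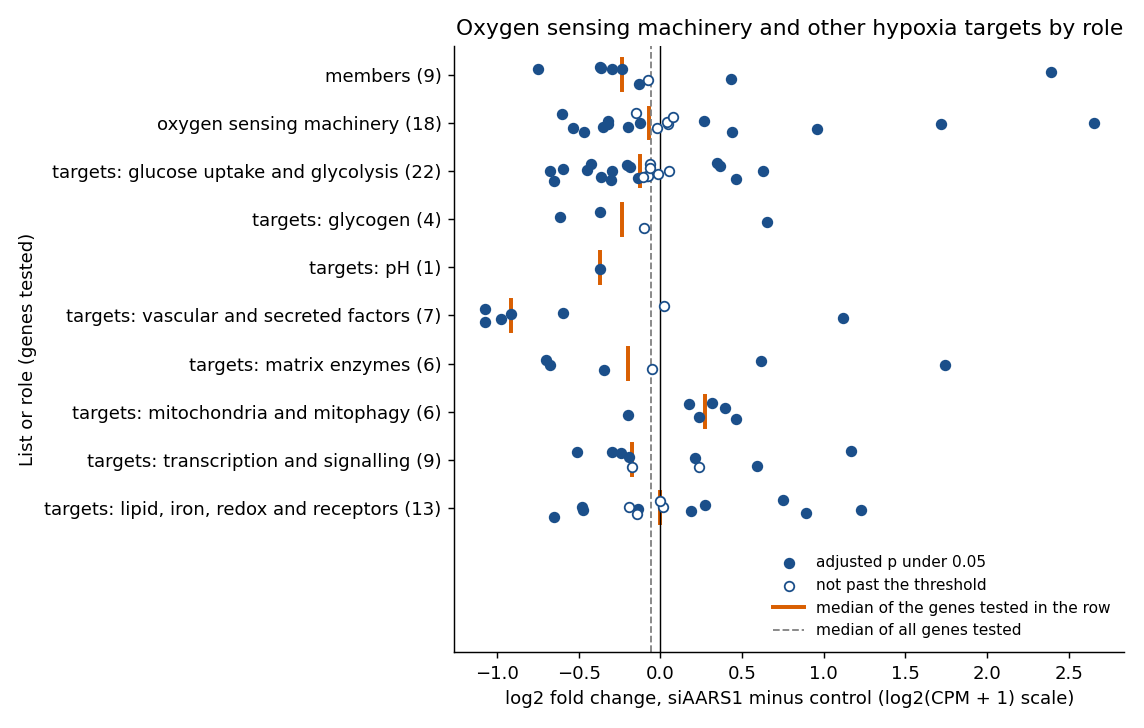
Log2 fold change of each tested gene, siAARS1 minus control on the log2(CPM + 1) scale, by list and role, with the number of genes tested in brackets. Filled points passed an adjusted p of 0.05, open points did not, the bar is the median of the row and the dashed line the median of all genes tested at −0.05. The vascular and secreted factors lie lowest, with a median of −0.91, and the mitochondrial genes highest, with a median of 0.28.

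Of 7 secreted and vascular factors tested, 5 were lower, 1 was higher and 1 did not pass, against 38.0% lower and 32.6% higher among all genes, with a median log2 fold change of −0.91, and −0.67 after the GC and length correction. PDGFB, a growth factor for the cells that coat vessels, was measured at 14.3 and 12.5 CPM in controls and at 5.80 and 5.87 CPM after knockdown (log2 fold change −1.07, adjusted p = 9.23e-09). ANGPTL4, a secreted inhibitor of lipoprotein lipase, was measured at 50.6 and 53.8 CPM in controls and at 26.7 and 25.3 CPM after knockdown (log2 fold change −0.98, adjusted p = 5.04e-12). STC1, a secreted glycoprotein, went the other way, with 4.90 and 5.20 CPM in controls and 12.5 and 11.8 CPM after knockdown (log2 fold change 1.12, adjusted p = 5.59e-09). After the GC and length correction these 3 changes were −0.76, −0.61 and 0.81. Of the 12 genes in this role, 4 had no row, and PGF was listed but too low to test.

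The other large changes were higher. PLOD2, a lysyl hydroxylase of collagen, was measured at 18.4 and 19.4 CPM in controls and at 63.4 and 67.4 CPM after knockdown (log2 fold change 1.74, adjusted p = 2.47e-16), with 0.79 after the GC and length correction. TFRC, the transferrin receptor, was measured at 67.3 and 68.4 CPM in controls and at 159 and 162 CPM after knockdown, with a log2 fold change of 1.23 and 0.47 after the GC and length correction. KDM3A, a histone demethylase induced by HIF, was measured at 38.6 and 39.0 CPM in controls and at 88.0 and 88.7 CPM after knockdown, with a log2 fold change of 1.17 and 0.90 after the GC and length correction. For all 3 the knockdown libraries lay far above the controls and agreed closely with each other.

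Among 22 genes of glucose uptake and glycolysis, 4 were higher, 12 were lower and 6 did not pass. The share called, 72.7%, was close to the 70.7% of all genes, of which 32.6% were higher and 38.0% lower. The split was 11 higher and 7 lower after the GC and length correction and 4 higher and 18 lower with a common median. No direction for this role thus held under all settings. Among all genes 4522 were higher and 4612 lower after the correction, and 3306 higher and 8173 lower with a common median. The mitochondrial and mitophagy genes, to which BNIP3 belongs by function, were 5 higher and 1 lower of 6 tested, against 32.6% higher and 38.0% lower among all genes. This split was also reversed by the GC and length correction, to 2 higher and 4 lower. With a common median it was 1 higher and 1 lower. BNIP3L, the close relative of BNIP3, was measured at 22.0 and 21.6 CPM in controls and at 30.2 and 30.7 CPM after knockdown. Its log2 fold change was 0.46 (adjusted p = 3.41e-06), and −0.36 after the GC and length correction (adjusted p = 9.02e-05). BNIP3L was named after its values were seen.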

How the data were processed

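RNA of HGC27 cells was sequenced in 4 libraries, 2 control and 2 siAARS1, grouped by sample title. The authors deposited 1 table of CPM values for 14431 genes, all above 1 CPM in at least 1 library. The submitters' processing notes name RSEM 1.3.3 and hg38, and the aligner, annotation and use of strand are not given in the sources used here. CPM corrects for neither gene length nor GC content.

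Deposited values were whole multiples of 1 read for 100% of entries, within 0.0006 CPM. A limit of 3 reads equalled 0.0880 to 0.0971 CPM and covers counting error only. Replicates differed beyond sampling noise, with a chi-square per gene of 3.63 in control and 3.62 in siAARS1 libraries.

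All genes that averaged 1 CPM or more in a group were tested with limma 3.58.1 (R 4.3.3, trended eBayes) on log2(CPM + 1), siAARS1 against control. P-values were adjusted over the 14199 genes by the Benjamini-Hochberg method, with a threshold of 0.05. The script was tested on simulated data. Alternatives were a pseudocount of 0.1, no filter, median scaling, quantile normalization, a replicate block, leaving out each library, a threshold of 0.01, edgeR 4.0.16 with TMM or library size only and DESeq2 1.42.0 on recovered reads, and a smooth correction for GC content and length (mgcv 1.9.3), also with the block. GC content and length of the longest transcript came from GENCODE v29 for 97.2% of listed genes, and coordinates came from the same annotation.

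The genes and lists were chosen with earlier results of these data known. Named genes were AARS1, the 10 genes, the 6 called genes of largest change with at least 5 CPM in each of the 2 further lists, and HIF3A, ARNT2, EGLN2 and VHL. Promoters came from RefSeq. No column of another series was present.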

Additional observations from a re-analysis of the deposited data

How the results depend on the processing

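The 14 alternatives for single genes left HIF1A called higher, with log2 fold changes of 1.303 to 2.49, and ARNT, EGLN3 and NDRG1 called lower. EGLN1, VEGFA and ADM changed sign with the correction for GC content and length, to −0.0937, 0.0496 and 0.0214. None of these values passed the threshold, with the replicate block or without it, so no opposite change was detected. The number of the 9 genes past the threshold was 8 in the reported fit, 5 with DESeq2, 5 with the GC and length correction and 5 with the GC and length correction and replicate block, and 6 to 7 when 1 library was left out. Across all alternatives, 11 to 17 genes of the other oxygen sensing machinery, 46 to 59 further targets and 8355 to 11479 of all genes were called. AARS1 kept its call in every alternative, with log2 fold changes of −0.74 to −0.29. With median scaling 28.8% of all called genes were higher, against 46.2% in the reported fit, 37.0% with quantile normalization and 53.8% with DESeq2. The replicate block alone left 8 of the 9 genes called and moved all genes called from 10032 to 10389. Same-numbered libraries deviated together only weakly (r = 0.129 across genes), and the labels do not say that a number marks a shared culture. EPAS1 was limited by depth, with 24 to 47 reads per library. With 2 libraries in a group, a lone library left after leaving out the other was assumed to vary like the other group.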

Other observations

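Single glycolysis genes that kept one direction under every setting tried stood on both sides, with more of them lower than higher. The genes named here were chosen after their values were seen. SLC2A1, which brings glucose into the cell, was at 61.2 and 64.8 CPM in controls and at 80.9 and 80.2 CPM after knockdown. HK2, which phosphorylates glucose, was at 88.7 and 89.3 CPM in controls and at 138 and 139 CPM after knockdown. LDHA, the lactate dehydrogenase subunit that favours the making of lactate, was higher by 0.37 on the log2 scale (limma adjusted p = 3.81e-09), with values of 0.15 to 0.43 across the alternatives. No other glycolysis gene was higher under every setting. Of the relatives of the first pair, SLC2A3 was lower with a log2 fold change of −0.60 (adjusted p = 9.62e-07), and HK1 was lower with −0.68 (adjusted p = 7.00e-10). ALDOC, with −0.65, and ENO2, with −0.42, were also below 0 under every setting, as were PFKP, PGK1 and PDK3. The prolyl hydroxylase subunits of collagen were also split. P4HA1 was called higher (0.62), but the GC and length correction left 0.08, which was not past the threshold, while P4HA2 was called lower (−0.70), with −0.58 after it. CA9, the carbonic anhydrase often used as a marker of hypoxia, had 17 to 36 reads per library and was too low to test.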
